A study of Mus musculus with 6 samples.

Results

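Zfp995, Zfp942, Zfp943, Zfp994, Zfp944, Zfp758, Zfp945 and Zfp40 are 8 zinc finger genes that follow each other in this order along mouse chromosome 17, in the reference annotation of assembly GRCm38.p6. Every probe set whose platform annotation names at least 1 of them was taken, which gave 19 probe sets with 1 symbol and 1 probe set with 2 symbols, out of 45037 probe sets tested. Spleens came from adult F1 females of 2 outcrosses: (AKR/J x FVB/NJ)F1, with 3 samples, and (DBA/2J x FVB/NJ)F1, with 3 samples. All 6 therefore carried 1 set of FVB/NJ chromosomes, and the labels name no treatment, no age beyond adult and no batch. Each array carried RNA of 1 spleen sample on an Affymetrix chip, to find basal expression differences between the genotypes. Nothing in the labels says that the samples of a cross came from separate animals, so p-values measure only the spread between these samples. A name such as AKR/J F1 spleen 1 stands below for the sample of that number. Values are log2 signals as deposited, and every difference is AKR/J cross minus DBA/2J cross.

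The 8 genes were picked because they stood higher in AKR/J F1 spleens in these same arrays. Their differences between the crosses are therefore a description and carry no test. At least 1 probe set of each of the 8 genes was higher, which is no check because the genes were picked for it. The Zfp945 probe set with the highest mean over all arrays stood lower in AKR/J F1 spleens, and no direction is given for that gene.

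C2H2 zinc finger proteins read DNA through an array of small zinc-binding modules. In mammals many of their genes lie in tandem clusters that grew by duplication, and many of the proteins carry a KRAB domain. That domain recruits the corepressor TRIM28, which brings in SETDB1 and heterochromatin proteins, and a main known task of the family is the silencing of retroviral elements. Little is established about the single genes described here, and neighbouring copies can be alike enough to be hard to separate with short probes.

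The start sites show how closely some of the 8 genes are related. RefSeq promoter windows (GRCm38.p6, 250 bases before to 50 after the start) were at hand for 7 genes, all but Zfp40. All sequences, alignments and motifs given here are those of the reference assembly. Whether the chromosomes of the strains crossed for these samples carry the same bases was not tested. Zfp942 and Zfp943 start head to head on opposite strands, and their windows share 194 bases of genome. Zfp944 and Zfp758 do the same further along the chromosome, and their windows share 162 bases. The windows of Zfp943 and Zfp758 are shown because they are near copies of each other from these separate places, and that of Zfp994 because it resembles them in a short stretch only. Capitals mark CACGTG, the E-box core, and GGGCGG or its reverse complement CCGCCC, the GC box.
Zfp943, chr17:21962309-21962608, plus strand: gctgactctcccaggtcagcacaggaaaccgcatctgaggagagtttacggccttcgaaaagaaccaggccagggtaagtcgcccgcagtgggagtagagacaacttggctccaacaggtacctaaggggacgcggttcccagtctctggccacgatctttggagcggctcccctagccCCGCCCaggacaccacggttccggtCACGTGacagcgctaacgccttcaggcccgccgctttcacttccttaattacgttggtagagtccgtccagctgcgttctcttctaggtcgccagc
Zfp758, chr17:22361213-22361512, plus strand: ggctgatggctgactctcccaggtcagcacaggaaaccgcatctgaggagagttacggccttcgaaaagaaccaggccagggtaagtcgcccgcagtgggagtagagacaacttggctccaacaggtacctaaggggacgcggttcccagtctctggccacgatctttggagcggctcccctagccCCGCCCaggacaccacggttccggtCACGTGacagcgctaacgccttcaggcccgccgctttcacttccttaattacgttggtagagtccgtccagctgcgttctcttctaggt
Zfp994, chr17:22225565-22225864, minus strand: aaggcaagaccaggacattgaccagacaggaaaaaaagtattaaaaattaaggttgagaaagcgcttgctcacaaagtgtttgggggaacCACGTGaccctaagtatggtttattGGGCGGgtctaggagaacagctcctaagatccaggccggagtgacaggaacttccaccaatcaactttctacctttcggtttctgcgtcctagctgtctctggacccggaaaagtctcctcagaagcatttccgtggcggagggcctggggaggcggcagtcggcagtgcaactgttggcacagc
In the best local alignment, Zfp943 and Zfp758 were identical at 292 of 293 positions, with 1 gap and 0 mismatches. Zfp942 and Zfp944 were identical at 274 of 275, with 1 mismatch and 0 gaps. Zfp994 matched each of these 4 windows at 34 of 42 positions, and Zfp945 matched Zfp994 at 49 of 63 with 5 gaps. The window of Zfp995 shared no more than 14 identical bases with any other. Of 32851 promoter windows of the same length, 4 shared at least 20 words of 20 bases with the set of Zfp942, Zfp943, Zfp944 and Zfp758, and they were these 4 themselves.

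Both motifs were chosen after the windows had been read and were searched on both strands. Their matches in the printed windows do not overlap. CACGTG stood in 5 of the 7 windows and in 7.15% of all 32851. GGGCGG stood in 6 of the 7 and in 35.7% of all. Overlapping windows of a head-to-head pair hold the same site, so these are 3 and 4 places in the genome, and the pairs are near copies of each other. The member counts are therefore not separate observations to set against the shares of all windows. Neither was in the window of Zfp995, and that of Zfp945 had GGGCGG without CACGTG. The 4 windows of the paired genes had 20 to 22 CpG dinucleotides and 57.7% to 59.7% G and C, against 3 CpG and 46.0% in Zfp995, 7 CpG and 52.3% in Zfp945, and 11 CpG and 51.7% in Zfp994. The plot of identical bases by pair of windows shows the 4 alike windows beside the 3 others.

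**Figure D1:**
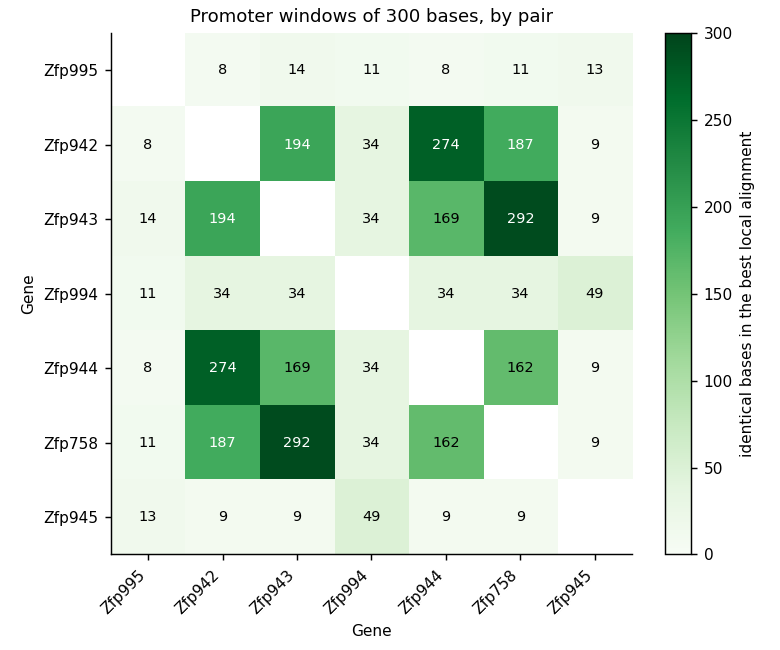
Number of identical bases in the best local alignment between the 300-base promoter windows of 7 genes in the reference assembly, rows and columns in chromosome order. The 4 windows of Zfp942, Zfp943, Zfp944 and Zfp758 share 162 to 292 bases pairwise, while Zfp995, Zfp994 and Zfp945 share at most 49 with any other.

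The spleen label was checked against its markers. All 6 B cell markers, 9 T cell markers, 5 red pulp macrophage markers and 3 stromal markers that had a probe set stood above background. Background was set at 4.61, the 95th percentile of 86 probe sets of olfactory and vomeronasal receptors and of Y-linked genes, which females lack. Array medians lay between 5.05 and 5.10. Some cell type marker lists also moved with the cross, and over all genes 6.29% were higher and 6.17% lower. Of 9 T cell markers 8 were past the threshold and higher in AKR/J F1 spleens. Their summed level (log2) was 11.93 to 12.00 in AKR/J F1 spleens and 11.45 to 11.54 in DBA/2J F1 spleens. All 8 erythroid and all 8 dividing cell markers were lower, with erythroid sums of 11.33 to 11.99 in AKR/J F1 spleens and 12.95 to 13.69 in DBA/2J F1 spleens. For dividing cells the sums were 10.58 to 11.19 in AKR/J F1 spleens and 11.80 to 12.73 in DBA/2J F1 spleens. Of 6 B cell markers 2 were higher, with sums of 13.97 to 14.06 and 13.61 to 13.89 in AKR/J and DBA/2J F1 spleens. The sum of 8 pancreatic acinar markers was 16.93 to 16.97 in AKR/J F1 spleens and 16.43, 16.78 and 9.79 in DBA/2J F1 spleens 1, 2 and 3. In every array but that of DBA/2J F1 spleen 3, this sum lay above the sum of the B cell markers. The spleen markers above background therefore do not show that the samples held spleen alone. None of the 5 red pulp macrophage, 3 stromal and 8 acinar markers passed in either direction. No marker of these lists was below background in both crosses. In spleen tissue, fewer cells of a type and less RNA per cell cannot be told apart, and the part of any of these shifts in the values below was not tested.

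Of the 19 probe sets with 1 symbol, 10 were past an adjusted p of 0.05 in limma and higher in AKR/J F1 spleens, where 5.14% of all probe sets were. Another 1 was past it and lower, where 5.26% of all were, and 8 were not past it. Because the genes were chosen on this contrast, these counts are listed and nothing is read from them. The 10 covered all 8 genes, with 2 probe sets each for Zfp942 and Zfp40. In 12 of the 19 the 3 arrays of the AKR/J cross all lay above the 3 of the DBA/2J cross (17.7% of all probe sets), in 2 they all lay below (18.3% of all), and in 5 the crosses overlapped. The differences had a median of 0.39 and ran from -0.92 to 1.60, and the median over all probe sets was -0.02. The highest value, at Zfp942 probe set 1454402_at, is set against DBA/2J F1 spleens below background, where only a bound of 0.21 is measured. Only 13 of the 19 stood above background in at least 1 cross, and all 10 higher ones were among these. The number of higher probe sets depended on single arrays: it was 4, 4 and 7 without AKR/J F1 spleens 1, 2 and 3, and 8, 4 and 5 without DBA/2J F1 spleens 1, 2 and 3. The median difference was 0.33 to 0.44 in those fits, and 0.37 without DBA/2J F1 spleen 3, the spleen with few acinar transcripts.

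**Figure D2:**
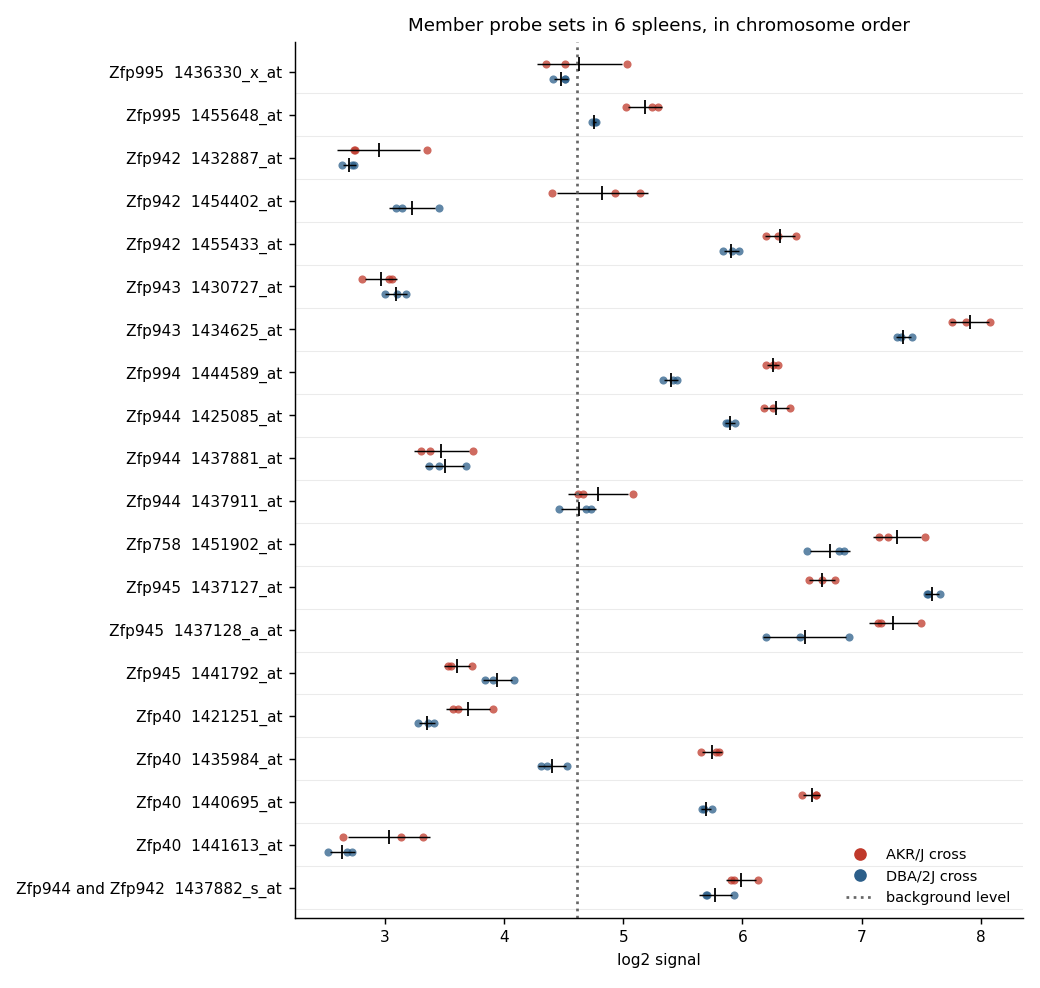
Log2 signal of the 20 member probe sets in each of the 6 spleen samples, in chromosome order. The AKR/J cross is above the DBA/2J cross in each row. Points are single arrays, ticks with bars are mean ± SD (n = 3 each), and the dotted line is the background level of 4.61. The crosses stand well apart at Zfp994 and at 2 probe sets of Zfp40, and in the opposite order at the Zfp945 probe set 1437127_at.

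Zfp995 is the first of the 8 genes on the chromosome and had a dim signal. Its probe set 1455648_at read 5.29, 5.24 and 5.02 in AKR/J F1 spleens, against 4.76, 4.77 and 4.74 in DBA/2J F1 spleens. The 3 values of the AKR/J cross were all higher, and those of the DBA/2J cross lay close together. The difference was 0.42 ± 0.09 (SE), a 1.34-fold higher signal. The other probe set, 1436330_x_at, was designed on the same database sequence, and the x in its name marks probes that may bind other transcripts as well. It read 5.03, 4.51 and 4.35 in AKR/J F1 spleens and 4.51, 4.51 and 4.41 in DBA/2J F1 spleens. Here only AKR/J F1 spleen 1 was high and the crosses overlapped (0.15 ± 0.16).

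Zfp942 and Zfp943, the first head-to-head pair, were both higher in AKR/J F1 spleens at their brightest probe sets. Zfp943 at 1434625_at read 8.08, 7.88 and 7.76 in AKR/J F1 spleens, against 7.42, 7.33 and 7.30 in DBA/2J F1 spleens. Zfp942 at 1455433_at read 6.45, 6.20 and 6.30 in AKR/J F1 spleens, against 5.97, 5.91 and 5.84 in DBA/2J F1 spleens. In neither did the crosses overlap, and in both AKR/J F1 spleen 1 was the highest array. The differences were 0.55 ± 0.10 for Zfp943 (1.47-fold) and 0.41 ± 0.09 for Zfp942 (1.33-fold).

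Zfp942 was also higher in AKR/J F1 spleens at a probe set of much lower signal. At 1454402_at it read 5.14, 4.93 and 4.40 in AKR/J F1 spleens, against 3.45, 3.09 and 3.14 in DBA/2J F1 spleens. The DBA/2J cross was below background there, and so was AKR/J F1 spleen 3, so that the fitted difference of 1.60 ± 0.19 gives a signal at least 1.16-fold higher when the background level stands in for the DBA/2J cross. Probe set 1432887_at, from the same database sequence, was below background in every array, with 3.35, 2.74 and 2.75 in AKR/J F1 spleens and 2.72, 2.74 and 2.64 in DBA/2J F1 spleens. The second Zfp943 probe set, 1430727_at, was below background too (2.97 ± 0.14 in AKR/J F1 spleens and 3.09 ± 0.09 in DBA/2J F1 spleens, SD, n = 3 each).

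Zfp994 has a single probe set, and its crosses were well separated. At 1444589_at it read 6.30, 6.26 and 6.20 in AKR/J F1 spleens, against 5.33, 5.42 and 5.45 in DBA/2J F1 spleens. The means were 6.25 ± 0.05 in AKR/J F1 spleens and 5.40 ± 0.07 in DBA/2J F1 spleens (SD, n = 3 each) and differed by 0.85 ± 0.08 (SE), or 1.81-fold. Zfp994 stayed between 0.82 and 0.88 under all 12 alternatives.

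Zfp944 and Zfp758, the second head-to-head pair, were likewise higher in AKR/J F1 spleens at their brightest probe sets. Zfp758, which has a single probe set (1451902_at), read 7.53, 7.22 and 7.15 in AKR/J F1 spleens, against 6.81, 6.85 and 6.54 in DBA/2J F1 spleens. Zfp944 at 1425085_at read 6.40, 6.26 and 6.18 in AKR/J F1 spleens, against 5.88, 5.94 and 5.86 in DBA/2J F1 spleens. The crosses overlapped in neither, and AKR/J F1 spleen 1 again read highest. The differences were 0.57 ± 0.13 (1.48-fold) for Zfp758 and 0.39 ± 0.09 (1.31-fold) for Zfp944. Set beside the first pair, the plus strand partners Zfp943 and Zfp758 differed by 0.55 ± 0.10 and 0.57 ± 0.13 at these probe sets. The minus strand partners Zfp942 and Zfp944 differed by 0.41 ± 0.09 and 0.39 ± 0.09. The ranges of 1 SE around these plus and minus strand values all overlap, so the values do not set the pairings apart. Those pairings are the ones whose promoter windows are printed or described above as near copies. Whether the values go with the likeness of the windows was not tested, nor whether probes of the pairs bind each other's transcripts. The other probe sets gave 1.60 and 0.25 for Zfp942, -0.13 for Zfp943, and 0.16 and -0.03 for Zfp944. All of them but the one at 0.16 were below background in at least 1 cross.

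The other probe sets of Zfp944 were not past the threshold. At 1437911_at it read 5.08, 4.66 and 4.62 in AKR/J F1 spleens and 4.73, 4.69 and 4.46 in DBA/2J F1 spleens, with overlapping crosses and a difference of 0.16 ± 0.14. At 1437881_at it was below background in every array (3.47 ± 0.23 and 3.50 ± 0.16 in AKR/J and DBA/2J F1 spleens, SD, n = 3 each). The probe set with several symbols, 1437882_s_at, is annotated to both Zfp944 and Zfp942 and is kept apart. It read 5.90, 5.93 and 6.13 in AKR/J F1 spleens and 5.69, 5.70 and 5.93 in DBA/2J F1 spleens. The crosses overlapped, with a difference of 0.21 ± 0.10.

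Zfp945 is the member whose probe sets pointed in opposite directions. At 1437127_at it read 6.56, 6.67 and 6.78 in AKR/J F1 spleens, against 7.56, 7.55 and 7.66 in DBA/2J F1 spleens. All 3 arrays of the AKR/J cross were lower, by 0.92 on average (-0.92 ± 0.09, SE), and the DBA/2J cross was 1.89-fold brighter. At 1437128_a_at it read 7.14, 7.16 and 7.50 in AKR/J F1 spleens, against 6.48, 6.20 and 6.89 in DBA/2J F1 spleens. Here all 3 arrays of the AKR/J cross were higher, by 0.74 ± 0.18 (1.67-fold), and the arrays scattered more, with an SD of 0.35 in DBA/2J F1 spleens. These probe sets were designed on the same database sequence, and the a in the second name marks probes shared by alternative transcripts of a gene. The dim probe set 1441792_at was below background in both crosses, with 3.53, 3.55 and 3.73 in AKR/J F1 spleens and 3.91, 3.84 and 4.08 in DBA/2J F1 spleens. It had the sign of the first (-0.34 ± 0.10). Which of these probe sets follows the amount of Zfp945 transcript was not tested, so no direction is given for the gene. Whether sequence differences between the strains lie under the probes of these or other probe sets was not tested either.

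Zfp40, the last of the 8 genes, had a positive difference at each of its 4 probe sets, of which 2 stood above background and were higher in AKR/J F1 spleens. At 1440695_at it read 6.50, 6.62 and 6.62 in AKR/J F1 spleens, against 5.66, 5.74 and 5.68 in DBA/2J F1 spleens. At 1435984_at it read 5.65, 5.80 and 5.78 in AKR/J F1 spleens, against 4.31, 4.36 and 4.53 in DBA/2J F1 spleens. The crosses were far apart at both, and here AKR/J F1 spleen 1 was the lowest of its cross. The first differed by 0.89 ± 0.08 (1.85-fold) and the second by 1.34 ± 0.09, which is at least 2.19-fold since the DBA/2J cross was below background. The dim probe sets 1421251_at and 1441613_at had differences of 0.35 ± 0.11 and 0.39 ± 0.16, with overlap at the second only.

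**Figure D3:**
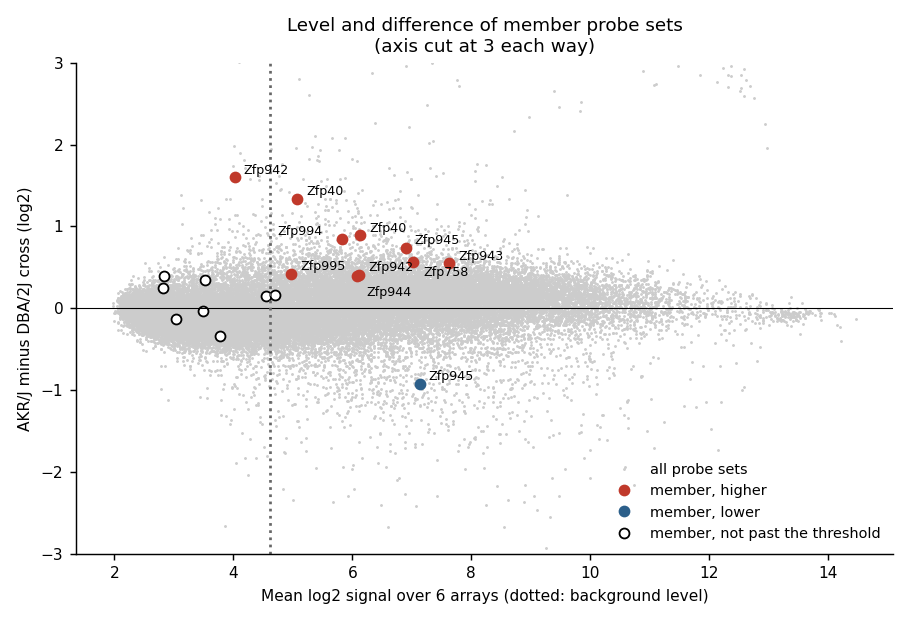
Mean log2 signal over the 6 arrays (x) against the difference between the crosses (y, AKR/J cross minus DBA/2J cross, log2) for all 45037 probe sets in grey and the 19 member probe sets on top. The y axis is cut at 3 each way, so a few grey points lie outside it. The 10 higher member probe sets are filled red, the lower Zfp945 probe set is blue, and the 8 others, open, lie near or below the background level at 4.61.

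Across the 19 probe sets, AKR/J F1 spleen 1 stood out from its cross. It was the highest array of the cross in 13 of the 19, where over all probe sets of the array it was the highest in 33.2%. The mean deviation of the 19 probe sets from their own 6-array means was 0.33, 0.17 and 0.11 in AKR/J F1 spleens 1, 2 and 3 and -0.19, -0.23 and -0.19 in DBA/2J F1 spleens 1, 2 and 3. In these means every AKR/J array lay above every DBA/2J array, with the spread among AKR/J spleens larger than among DBA/2J spleens. Because the genes were picked on this contrast, nothing is read from that order, and the fits below are a description too. By leaving out each array in turn, 5 of the 11 probe sets past the threshold stayed past it in all 6 fits: Zfp942 at 1454402_at, Zfp994, both brighter Zfp40 probe sets and the lower Zfp945 probe set. The other 6 fell short in at least 4 of the 6 fits. Zfp995 at 1455648_at and Zfp943 passed in 2 of them (without AKR/J F1 spleen 3 and without DBA/2J F1 spleen 1). Zfp942 at 1455433_at and Zfp758 passed only without DBA/2J F1 spleen 1, Zfp945 at 1437128_a_at only without DBA/2J F1 spleen 3, and Zfp944 at 1425085_at in none. The sign of the difference at these 11 was the same under all alternatives run.

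**Figure D4:**
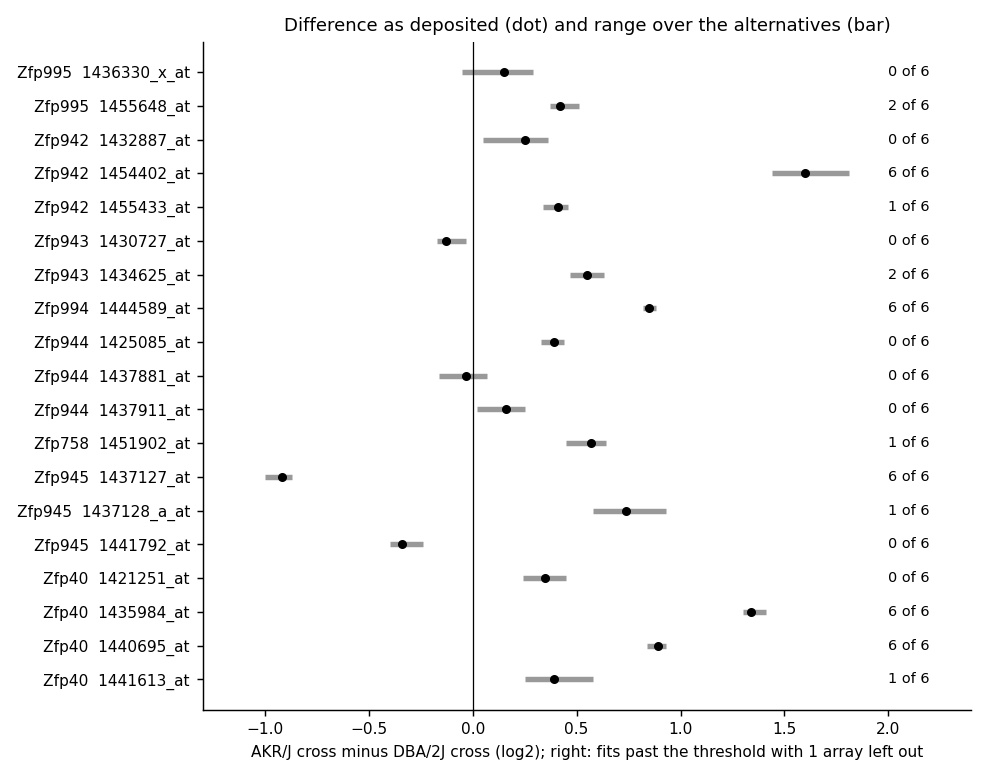
Difference between the crosses (AKR/J cross minus DBA/2J cross, log2) for the 19 member probe sets with 1 symbol. Dots are the values as deposited, bars span the lowest to highest value over the alternatives (11 or 12 per probe set), and the figures at the right count fits past the threshold when 1 array was left out. Zfp994, Zfp942 at 1454402_at, 2 Zfp40 probe sets and 1 Zfp945 probe set have 6 of 6.

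Genes around the cluster show whether the difference goes on along the chromosome. Between Zfp995 and Zfp40 the annotation holds 34 further genes, 8 of them protein-coding, of which 4 are vomeronasal receptors and 2 zinc finger genes. With 30 measured genes on each side and the 2 measured ones in between, there were 62 neighbours, each read at its brightest probe set with 1 symbol. Of these, 6 were higher in AKR/J F1 spleens (9.68%, against 6.29% of 18194 genes) and 3 lower (4.84%, against 6.17%), and 53 did not pass in limma. Of the 30 before Zfp995, 5 passed, each of them higher, with a median difference of 0.08 and 21 positive values. Of the 30 after Zfp40, 1 was higher and 3 were lower, with a median of -0.12 and 11 positive values, and the difference between the sides was not tested. The count of higher neighbours was 1, 3 and 2 without AKR/J F1 spleens 1, 2 and 3, and 7, 1 and 1 without DBA/2J F1 spleens 1, 2 and 3. The count of lower ones was 1, 1 and 1, and 4, 2 and 1, in the same order.

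Zinc finger genes that are no members, counted by a Zfp or Zscan symbol, lay mostly just before Zfp995. Of 15 such neighbours 2 were higher (13.3%, against 6.29% of all genes), 1 was lower (6.67%, against 6.17%) and 12 did not pass, with a median difference of 0.27. The number higher was 0, 2 and 1 without AKR/J F1 spleens 1, 2 and 3, and 3, 0 and 0 without DBA/2J F1 spleens 1, 2 and 3. It was 4 under median centring, a trended and robust variance, array weights and the replicate block alike, and 3 after quantile normalization and with dim probe sets left out. Zfp160 stood at 6.78 ± 0.15 in AKR/J F1 spleens and 6.25 ± 0.10 in DBA/2J F1 spleens (SD, n = 3 each), a difference of 0.52 ± 0.10 (SE, adjusted p = 0.0226). Zfp52 stood at 6.67 ± 0.11 and 6.15 ± 0.13 in AKR/J and DBA/2J F1 spleens, also a difference of 0.52 (adjusted p = 0.0217). Their arrays did not overlap, but each call was lost in 4 of the 6 fits with 1 array left out, with adjusted p up to 0.0755 for Zfp160 and 0.0687 for Zfp52. Both passed without DBA/2J F1 spleen 1, Zfp160 also without AKR/J F1 spleen 3 and Zfp52 also without AKR/J F1 spleen 2. Their other probe sets did not pass, with -0.17 for Zfp160, below background, and 0.36 for Zfp52.

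The zinc finger gene that passed in the other direction was Zfp13, which lies after Zfp40. It stood at 4.76 ± 0.07 in AKR/J F1 spleens and 5.26 ± 0.04 in DBA/2J F1 spleens (SD, n = 3 each). That difference of -0.50 ± 0.08 (adjusted p = 0.0122) stayed past the threshold whichever array was left out, with adjusted p up to 0.0474. Next to it, Zfp213 had 0.56 (adjusted p = 0.0525) and Zscan10, a factor of pluripotent cells, -0.24 (adjusted p = 0.15), and neither passed.

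Zfp946, which lies between Zfp758 and Zfp945, had a difference of 0.15 ± 0.16 (adjusted p = 0.549) at 6.76 in AKR/J F1 spleens and 6.61 in DBA/2J F1 spleens, a gene not past the threshold among members that were. Before Zfp995, Zfp677 had 0.40 (adjusted p = 0.0534), Zfp53 0.81 ± 0.29 with wide scatter (adjusted p = 0.108), Zfp51 0.30 (adjusted p = 0.193), Zfp983 -0.07 (adjusted p = 0.595) and Zfp760 -0.03 (adjusted p = 0.902). The remaining zinc finger neighbours, Zfp54, Zfp948, Zfp229 and Zfp820, were below background or at its edge in both crosses, with differences of -0.07, 0.27, 0.44 and 0.00, none past the threshold.

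Among the 47 neighbours without a Zfp or Zscan symbol, 4 were higher (8.51%, against 6.29% of all genes) and 2 lower (4.26%, against 6.17%), with a median of -0.01. Nearest to the cluster before Zfp995 were Ppp2r1a, the scaffold subunit of protein phosphatase 2A, and the formyl peptide receptor genes Fpr-rs3, Fpr-rs4 and Fpr2, followed by Has1, a hyaluronan synthase. Ppp2r1a differed by 0.40 ± 0.08 (adjusted p = 0.0227) at 11.16 and 10.76 in AKR/J and DBA/2J F1 spleens. Fpr-rs3, Fpr-rs4, Fpr2 and Has1, at 0.05, -0.21, 0.11 and -0.19, were not past the threshold. Of these, Fpr-rs3 and Fpr-rs4 were below background in both crosses. Further out, Rgmb, a coreceptor for bone morphogenetic proteins, had 0.60 (adjusted p = 0.0307) and BC002059 had 0.45 (adjusted p = 0.0344). Each of these 3 calls held without DBA/2J F1 spleen 1 and was lost in the other 5 fits with 1 array left out, at adjusted p up to 0.0763 for Ppp2r1a, 0.0923 for Rgmb and 0.104 for BC002059.

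After Zfp40 the nearest genes of other kinds were 6330415G19Rik (-0.29), Bicdl2 (0.00), Thoc6 of the mRNA export complex THO (-0.03), Hcfc1r1 (0.20) and Tnfrsf12a, the TWEAK receptor (-0.25), and none passed. Bicdl2 was below background in both crosses. Pkmyt1, a kinase that restrains entry into mitosis, was lower in AKR/J F1 spleens, with -0.45 ± 0.08 (adjusted p = 0.0158), and so was the serine protease gene Prss41, with -0.40 ± 0.08 (adjusted p = 0.0288). Pkmyt1 passed only without DBA/2J F1 spleens 1 or 2 (adjusted p up to 0.0563) and Prss41 only without DBA/2J F1 spleen 1 (up to 0.089). Still further out, the serine protease gene Prss22 stood at 8.45 ± 0.18 in AKR/J F1 spleens and 4.68 ± 0.19 in DBA/2J F1 spleens (SD, n = 3 each), a difference of 3.77 ± 0.13 (adjusted p = 7.39e-06), the largest among the 62 neighbours, past the threshold whichever array was left out.

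**Figure D5:**
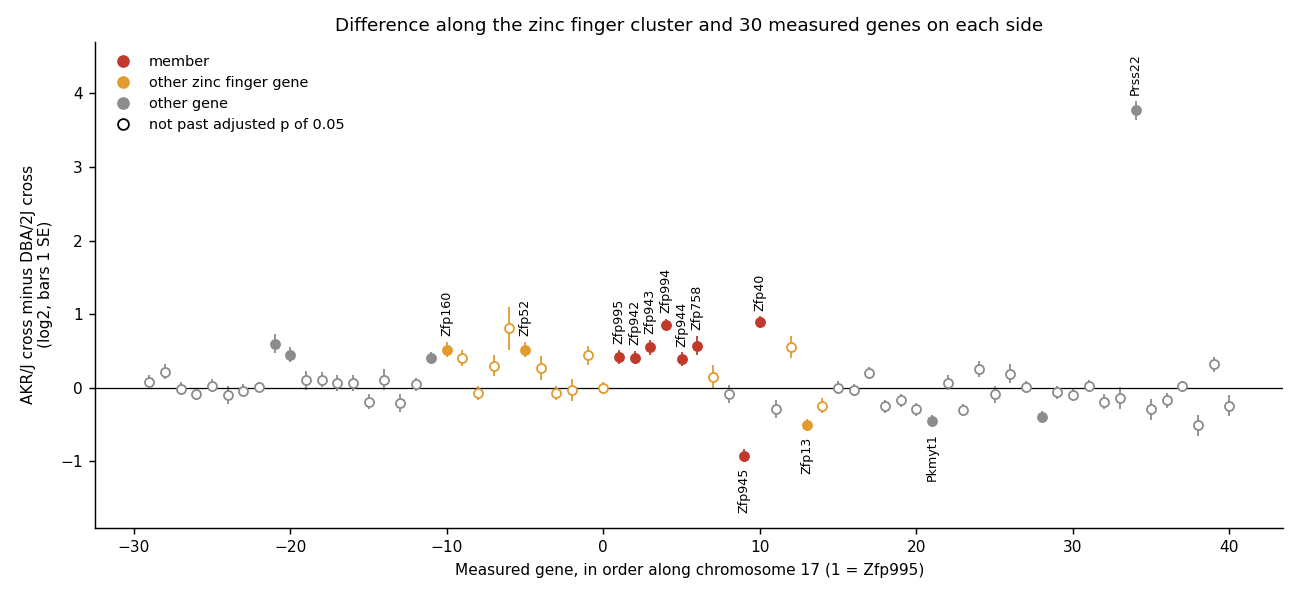
Difference between the crosses (AKR/J cross minus DBA/2J cross, log2, bars 1 SE) for each measured gene in its order along chromosome 17, counted from Zfp995, at the brightest probe set of the gene. Members are red, other genes with a Zfp or Zscan symbol orange and the remaining genes grey, and open symbols are not past an adjusted p of 0.05. Of the 8 members 7 lie at 0.39 to 0.89 and Zfp945 at -0.92, while Prss22 stands alone at 3.77.

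Zinc finger genes elsewhere in the genome gave a wider background for the family. Of 314 other genes with a Zfp symbol outside this neighbourhood, 26 were higher in AKR/J F1 spleens (8.28%, against 6.29% of all genes) and 9 lower (2.87%, against 6.17%), with a median difference of 0.13 against -0.01 over all genes. Of the 314 values 215 were positive, and 209 to 225 were under the 2 other scalings of the arrays. The number of higher ones was 7, 11 and 8 without AKR/J F1 spleens 1, 2 and 3 and 25, 4 and 7 without DBA/2J F1 spleens 1, 2 and 3, and it was 40 under the replicate block. The number of lower ones was 2, 2 and 3 without AKR/J F1 spleens 1, 2 and 3 and 5, 2 and 3 without DBA/2J F1 spleens 1, 2 and 3. For comparison, the 8 members read at their brightest probe sets had a median of 0.49.

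Genes of the corepressor machinery that KRAB zinc finger proteins work through were mostly not past the threshold. Of 24 listed genes 21 had a probe set with 1 symbol, of which 1 was higher (4.76%, against 6.29% of all genes), 0 were lower (against 6.17%) and 20 did not pass in limma, with a median of 0.08. Among the 21, Cbx3 (4.19 and 4.53 in AKR/J and DBA/2J F1 spleens) and Atf7ip2 (2.53 and 2.85) were below background in both crosses. At an unadjusted p under 0.05 there were 5 higher and 4 lower. The count of lower ones became 2 under the replicate block, 4 under array weights and 3 without DBA/2J F1 spleen 1. Chd3, a chromatin remodeller of the NuRD complex, stood at 8.65 ± 0.05 in AKR/J F1 spleens and 8.18 ± 0.09 in DBA/2J F1 spleens (SD, n = 3 each), a difference of 0.47 ± 0.08 (adjusted p = 0.017). It passed without AKR/J F1 spleen 2 or DBA/2J F1 spleen 1, and the other 4 fits gave adjusted p up to 0.0624. Trim28, the corepressor that the KRAB domain binds, had 10.21 ± 0.11 in AKR/J F1 spleens and 10.35 ± 0.11 in DBA/2J F1 spleens (-0.13 ± 0.09, adjusted p = 0.363). Setdb1, its histone methyltransferase partner, had 7.97 ± 0.08 and 7.86 ± 0.15 in AKR/J and DBA/2J F1 spleens (0.11 ± 0.10, adjusted p = 0.457). The 2 largest negative differences of the list, picked after their values were seen, did not pass: Uhrf1, which maintains DNA methylation, had -1.05 ± 0.29 (adjusted p = 0.055), and Cbx5, which encodes heterochromatin protein HP1 alpha, had -0.47 ± 0.16 (adjusted p = 0.0964). A p that misses the threshold does not show equal levels, and the 3 arrays in each cross limit what could be seen.

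Across the 6 arrays, the genes whose pattern was most like the mean of the 19 probe sets lay on other chromosomes. Out of 18186 genes compared, the 5 with the highest Pearson correlation were Tmem109 (r = 0.997), Atrnl1 (0.995), Setd7 (0.994), Zfp287 (0.993) and Phkb (0.993). With 6 arrays that fall into 2 crosses, such values largely restate the difference between the crosses, and they are given as a description. Zfp287, the zinc finger gene among them, lies on chromosome 11 and read 6.12, 5.83 and 5.69 in AKR/J F1 spleens, against 5.32, 5.15 and 5.20 in DBA/2J F1 spleens. Its highest value was in AKR/J F1 spleen 1, as in each of the 5 genes, which were chosen for their likeness to the mean of the member probe sets. Tmem109, a transmembrane protein gene on chromosome 19, differed by 0.40.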

How the data were processed

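Total RNA of 6 spleen samples was measured on Affymetrix arrays. The authors deposited log2 values, 1 per probe set and array, with array medians of 5.05 to 5.10; the submitters' processing notes name RMA and MAS5 without saying which made them. No genome build is given in the sources used here, so the annotation (GRCm38.p6) served for names and gene order, and coordinates belong to the RefSeq promoter windows only. Of 45101 probe sets 64 controls were left out. Groups and replicate numbers came from sample titles; titles name spleen, cross and number.

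Each of 45037 probe sets was fitted with limma 3.58.1 (lmFit, eBayes; R 4.3.3) on all 6 arrays, with Benjamini-Hochberg adjustment over all of them and a threshold of 0.05. The procedure was tested on simulated data. Gene counts used, for each of 18194 genes, the single-symbol probe set with the highest mean. Named genes are the members, zinc finger neighbours (Zfp or Zscan symbols), the 5 nearest other genes on each side, all neighbours past the threshold, corepressors past it with Trim28 and Setdb1, and the 5 genes most alike in pattern; others were chosen after their values were seen. Promoter windows were aligned locally with Biopython 1.88 (match 1, mismatch -2, gap opening -3, extension -1). The members and lists were chosen with earlier results of these data known. Alternatives were median centring, quantile normalization, a filter at the 40th percentile of mean level, robust trended variance, weights per array, a block for the replicate number, each array left out in turn, gene means, and 10 neighbours on each side. Without detection calls in the files, precision rests on the number of arrays.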

Additional observations from a re-analysis of the deposited data

How the results depend on the processing

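Of the 221 values of single member probe sets under the alternatives, 0 changed sign at a probe set past the threshold and 221 moved by less than the spread between arrays. Among probe sets not past it, Zfp944 at 1437881_at kept its sign in 6 of 11 alternatives and Zfp995 at 1436330_x_at in 11 of 12. The count of higher member probe sets, 10 as deposited, was 4 to 8 with 1 array left out and 7 after quantile normalization, and the median difference, 0.39, was 0.33 to 0.44 with 1 array left out and 0.49 with dim probe sets left out, a setting that leaves 12 of the 19. The count of lower member probe sets was 1 with 1 array left out, whichever it was. With array weights it was 2, and with the replicate block it was also 2. Higher neighbours, 6, were 1 to 7 with 1 array left out. They were 8 under median centring, a trended and robust variance, array weights and the replicate block alike. With 10 genes on each side, 1 of 22 neighbours was higher and 1 lower, where 6.29% and 6.17% of all genes were. Lower neighbours, 3, were 1 to 4 with 1 array left out and 5 without dim probe sets. Of the corepressors, higher ones were 0 to 1 with 1 array left out, 2 with a trended and robust variance and 2 with probe sets averaged by gene, and lower ones were 0 to 3, with 4 under array weights, 2 under the replicate block and 1 with gene means. Over the whole array the higher count, 2317, was 514 to 2286 with 1 array left out and 1436 after quantile normalization. The lower count, 2371, was 487 to 2507 with 1 array left out. Median centring gave 3050 higher and 1878 lower probe sets, and array weights gave 3286 and 3284. Median centring made 61.9% of called probe sets higher, against 49.4% as deposited. Whether equal replicate numbers pair the samples is not stated in the labels and was not tested. Deviations from the cross means correlated at 0.201, 0.108 and 0.045 for equal numbers and at -0.16 to 0.056 for unequal ones. The replicate block gave 2461 higher and 2197 lower probe sets. Fewer arrays leave fewer degrees of freedom; the cause of the other shifts was not tested.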
